A study of Mus musculus with 16 samples.

Results

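The transcripts of p53 and of 9 genes that it is known to activate were described in the line RAW264.7, mouse macrophage cells derived from a virus-induced leukaemia. The genes were chosen by name from the deposited expression table, which lists 21965 genes: Trp53, which encodes p53, and Mdm2, Cdkn1a, Ccng1, Sesn1, Bax, Tnfrsf10b, Trp53inp1, Zmat3 and Phlda3. Of these 10 genes, 9 reached at least 10 counts in every library and were tested. Phlda3, an inhibitor of the kinase Akt, had 1 to 7 counts per library and is taken as not measured.

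The cells belonged to 4 groups of 4 libraries each. In the first, 50 µg/ml oxLDL, the oxidised lipoprotein that loads macrophages with lipid, was given with tirzepatide at 100 nmol/ml. This is the unit of the labels, and the data cannot show whether it is the one that was meant. In the second only oxLDL was given at 50 µg/ml, in the third only tirzepatide, a peptide drug that activates the GIP and GLP-1 receptors, and the controls received culture medium as vehicle. All groups are 1 line in the same medium with serum, no genotype was altered, and the duration of treatment is not given in the sources used here. Separate cultures are not stated in the labels for the numbered libraries, so the p-values reflect no more than the spread among these samples, which may be technical. In a bulk sample, fewer cells that express a gene and less RNA per cell cannot be told apart.

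The summed expected counts of a library ranged between 15877278 and 17336019, with 12954 to 13276 genes detected. All 8 macrophage markers looked at reached 10 counts in most libraries. Of 12 genes of T cells, B cells, fibroblasts and erythroid cells, 1 reached 10 counts in most libraries. In all 16 libraries 4 of the 12 were at 0, among them the T cell genes Cd3e and Cd3g and the B cell gene Ms4a1. The fibroblast gene Col1a1 had the most counts of the 12, 226 over 16 libraries. The 12 summed to 0.252 to 2.212 TPM in a library. Transcripts of 12 pancreatic acinar enzymes were present at a summed 7.57 to 41.5 TPM with the combination, 5.2 to 22.9 TPM with oxLDL, 6.9 to 42.3 TPM with tirzepatide and 17.5 to 179 TPM in the controls, with the highest sums in controls 1 and 2. TPM is the deposited abundance scaled for transcript length and library depth. The mitochondrial share of counts was highest, or equal highest, in the library numbered 1 of each group. Their part in the results was not tested. Without controls 1 and 2 together the count of members called was the same in every comparison, and without the 4 libraries numbered 1 it was 0 with oxLDL and 1 with tirzepatide, where Trp53inp1 took the place of Zmat3.

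p53 is a transcription factor that is held at low protein levels in unstressed cells, because Mdm2, itself a p53 target, binds it and marks it for degradation. DNA damage and other stresses release this brake mainly by protein modification, so the level of Trp53 mRNA says little about p53 activity, and the mRNAs of its targets are the usual readout. The targets halt the cell cycle, dampen growth signals or promote apoptosis. In macrophages p53 is also known to restrain inflammatory transcription, and macrophage death and proliferation are processes of the atherosclerotic plaque.

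The binding elements through which p53 acts are pairs of a palindrome-like decamer, and the promoter windows of the members were read for them, from RefSeq on GRCm38.p6, an earlier build than the GRCm39 of the deposited values. A window covers 250 bases before an annotated start and 50 bases from it on. Of the 10 members, 7 matched, with 9 windows, since Cdkn1a and Sesn1 have a pair of starts each; no window was at hand for Trp53inp1, Zmat3 and Tnfrsf10b. The p53 decamer consensus of 10 bases, whose reverse complement is the same consensus so that both strands are searched at once, was in 6 of the 9 windows, against 8.36% of all 32851 windows. Pairs, with at most 1 mismatch in each decamer and a spacer of at most 13 bases, were in the windows of Cdkn1a and Ccng1, against 2.71% of all windows. A match is a run of letters and not evidence of binding, and the window of the other Cdkn1a start, 2790 bases downstream, held no decamer. Sequence outside the windows was not read, so a window without a pair does not show that its gene lacks one. Apart from Trp53, the members were chosen as known p53 targets, so the shares of all windows are given for scale only. The windows with a pair are shown with the decamers of the pairs in capitals, for Cdkn1a at chr17:29090729-29091028 on the plus strand and for Ccng1 at chr11:40755237-40755536 on the minus strand.
Cdkn1a: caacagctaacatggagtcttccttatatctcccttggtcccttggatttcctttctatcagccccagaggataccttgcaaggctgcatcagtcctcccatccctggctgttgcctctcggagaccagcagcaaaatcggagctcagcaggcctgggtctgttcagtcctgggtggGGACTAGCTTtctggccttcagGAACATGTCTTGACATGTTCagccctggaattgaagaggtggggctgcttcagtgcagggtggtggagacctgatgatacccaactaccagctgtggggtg
Ccng1: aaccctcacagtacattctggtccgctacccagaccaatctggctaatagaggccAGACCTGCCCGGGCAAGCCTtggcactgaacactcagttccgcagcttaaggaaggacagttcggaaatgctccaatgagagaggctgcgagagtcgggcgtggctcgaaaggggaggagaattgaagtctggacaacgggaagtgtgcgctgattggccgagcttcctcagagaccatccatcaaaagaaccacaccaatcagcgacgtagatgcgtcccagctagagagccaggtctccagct
Position -1 is the last base before the start. In Cdkn1a the exact decamers begin at positions -73 and -51, the second is followed directly by a decamer with a mismatch, and both pairs share it. In Ccng1 the exact decamer begins at position -185 and directly follows one with a mismatch.

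The members were expressed over a wide range of levels. Mdm2 had the highest mean, 259 TPM over 16 libraries, and ranked 435 of 16140 genes with any TPM. Trp53 followed with a mean of 152 TPM and Bax with 138 TPM, and Trp53 was above Bax in 12 of 16 libraries. Ccng1 and Cdkn1a, with means of 99.9 and 97.9 TPM, did not differ in order, since Ccng1 was the higher in 7 of 16 libraries. Sesn1 averaged 20.2 TPM, Zmat3 13.9 TPM, Tnfrsf10b 10.2 TPM and Trp53inp1 8.17 TPM. Tnfrsf10b was above Trp53inp1 in 15 of 16 libraries, and every other neighbouring pair in this order, down to Phlda3 at 0.083 to 0.601 TPM, kept its order in all 16. The feedback pair and the effectors of arrest were thus abundant transcripts under every condition, including vehicle.

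**Figure D1:**
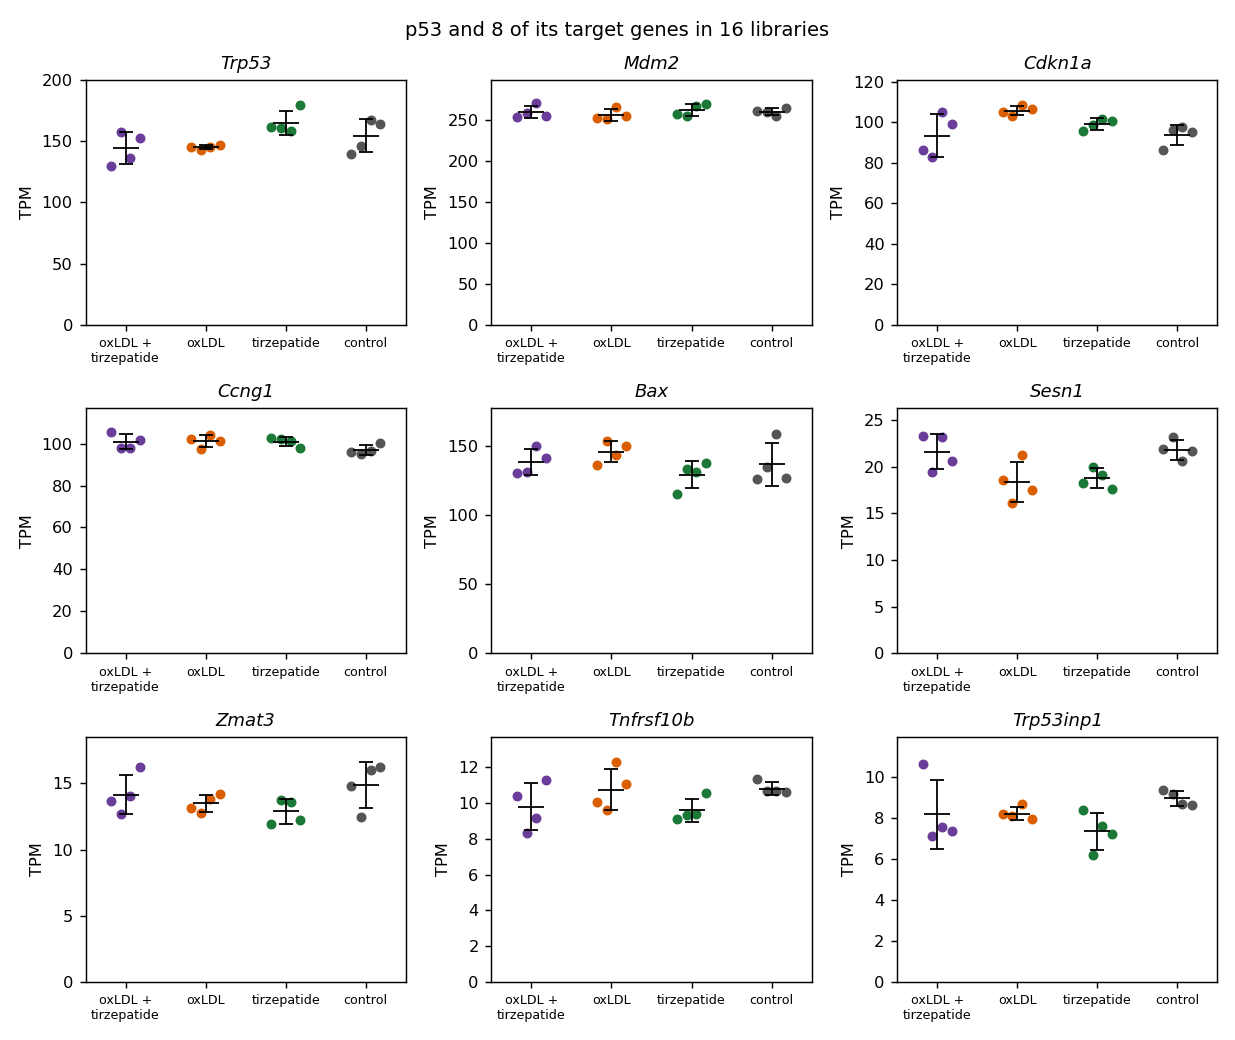
TPM of Trp53 and 8 target genes in each of 16 libraries, by group (dots, libraries 1 to 4 from left to right), with the group mean and SD (bars, n = 4). Mdm2 stays between 250.9 and 270.6 TPM in all libraries, and the 4 oxLDL libraries of Cdkn1a lie above all 4 controls.

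With oxLDL against control no member passed the threshold, and with tirzepatide against control 1 did, Zmat3, which fell. The combination was set against each single treatment and not against control. Changes were tested on the rounded expected counts with edgeR's quasi-likelihood test, with Benjamini-Hochberg adjustment over all 11319 genes tested and a threshold of 0.05. With oxLDL against control, 0 of 9 members were called where 4.54% of all genes were, and DESeq2 also called 0. Of all genes 2.49% were called higher and 2.05% lower. The unadjusted p was under 0.05 for 2 of 9, against 18% of all genes. The median log2 change of the 9 was -0.030, against -0.0021 over all genes. With tirzepatide against control, 1 of 9 was called, in the lower direction, where 4.08% of all genes were called, 2.34% higher and 1.74% lower. Here 4 of 9 had an unadjusted p under 0.05, against 18.6% of all genes, and the median log2 change was -0.11, against -0.00015 over all genes.

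No member passed the threshold when the combination was set against either single treatment. In the combination against oxLDL 0 of 9 were called, as were 0.0353% of all genes, with 1 of 9 and 10.1% of all genes at an unadjusted p under 0.05. In the combination against tirzepatide 0 of 9 were called, against 1.54% of all genes (0.76% higher and 0.777% lower), with 2 of 9 and 13.8% of all genes at an unadjusted p under 0.05. DESeq2 called 0 in both. For the interaction, which asks whether the effect of oxLDL differs with and without tirzepatide, 0 of 9 were called by edgeR and by DESeq2, against 0.0707% of all genes by edgeR (0.0265% higher and 0.0442% lower), and 2 of 9 had an unadjusted p under 0.05, against 10.3% of all genes. The comparisons with control share the control libraries, while the combination against tirzepatide shares no library with oxLDL against control. The 95% intervals of the 9 members with oxLDL reached from a change of -22% for Trp53inp1 to 20.9% for Cdkn1a, and those of the combination against oxLDL from -20.7% for Tnfrsf10b to 23.4% for Sesn1.

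**Figure D2:**
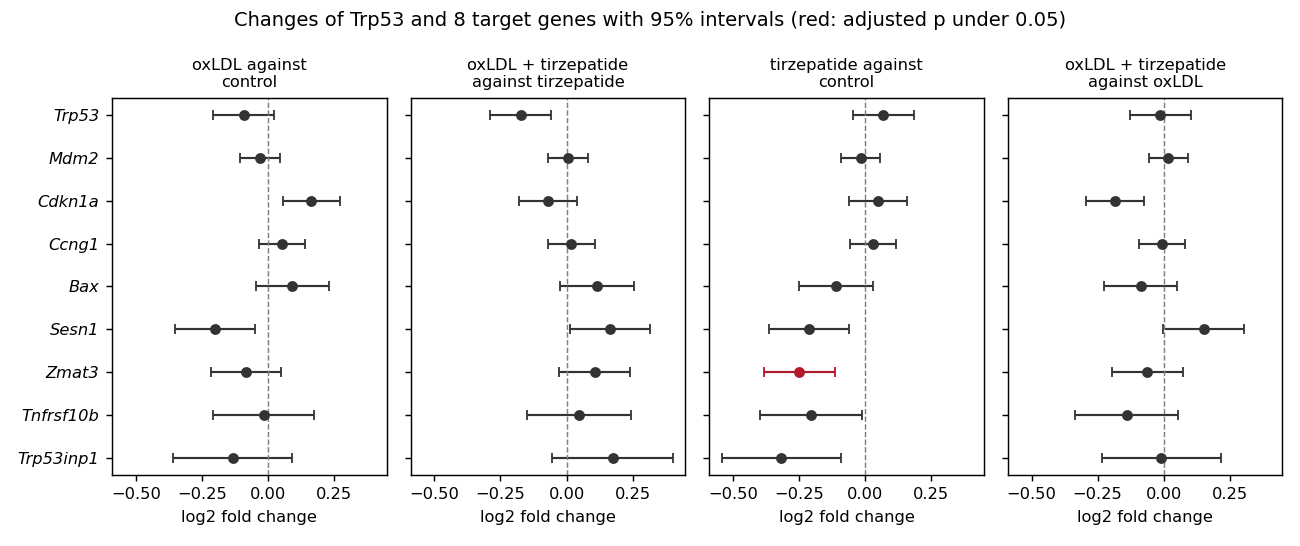
Log2 fold changes of the 9 measured genes in 4 comparisons (points, from edgeR) with 95% intervals (bars, 4 libraries a group). Zmat3 with tirzepatide against control, at -0.25, is the only change past the threshold.

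Trp53 itself had 130, 158, 137 and 153 TPM in the libraries of the combination and 145, 143, 145 and 147 TPM with oxLDL. With tirzepatide it had 162, 161, 158 and 179 TPM, and in the controls 140, 146, 167 and 164 TPM. All 4 tirzepatide libraries lay above the 2 lower controls, and the lowest of them, at 157.9 TPM, was just above the highest library of the combination, at 157.8 TPM, so that the combination and tirzepatide did not overlap in TPM. In CPM, the scale without transcript length, they did overlap, and 6.94% of all genes had groups that did not. In counts the difference was a log2 change of -0.17 (SE 0.056) for the combination against tirzepatide, which did not pass (adjusted p = 0.13 by edgeR). Without library 2 of the combination it was -0.23 and passed (adjusted p = 0.019 by edgeR). The oxLDL libraries were tight, with an SD of 1.68 TPM against 13.5 TPM in the controls, and the log2 change with oxLDL was -0.092 (SE 0.056, adjusted p = 0.407 by edgeR). With tirzepatide it was 0.069 (SE 0.056, adjusted p = 0.548 by edgeR).

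Mdm2, the ubiquitin ligase of the feedback loop, was the steadiest member. It had 259 ± 7.75 TPM with the combination, 256 ± 6.97 TPM with oxLDL, 262 ± 7.01 TPM with tirzepatide and 260 ± 4.16 TPM in the controls (SD, n = 4 each). Its highest library was 1.08 times its lowest, and its SD within groups was 0.034 on the log2 CPM scale, where genes of like TPM had a median of 0.067. The 95% interval of its change ran from -7.01% to 3.15% with oxLDL, from -6.16% to 4.1% with tirzepatide and from -3.88% to 6.63% for the combination against oxLDL. Mdm4, the relative of Mdm2 that masks the activating region of p53, was also level, at 70.6 to 79.6 TPM over all 16 libraries.

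Cdkn1a encodes p21, the inhibitor of cyclin-dependent kinases that carries out p53-dependent arrest. It had 86.4, 82.6, 105 and 99.1 TPM with the combination and 105, 103, 109 and 106 TPM with oxLDL. With tirzepatide it had 95.4, 98.3, 102 and 101 TPM, and in the controls 86.2, 95.9, 97.4 and 94.97 TPM. Every oxLDL library was above every control, and library 3 of the combination reached the oxLDL range while the other 3 lay below it. Among all genes tested, 11% had CPM that did not overlap between oxLDL and control, so this separation is not rare. The log2 change with oxLDL was 0.16 (SE 0.053), an increase of 12.1% with a 95% interval from 3.92% to 20.9%, and it missed the threshold (adjusted p = 0.0788 by edgeR). It passed in a fit of these 2 groups alone (adjusted p = 0.0488 by edgeR) and without library 2 of the combination, which is not in the comparison (adjusted p = 0.0421 by edgeR), and over all alternatives the adjusted p ran from 0.0418 to 0.256. Leaving out both controls rich in acinar transcripts gave 0.15 (adjusted p = 0.256 by edgeR).

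For the combination against oxLDL, Cdkn1a had a log2 change of -0.18 (SE 0.053), a difference of -12% with a 95% interval from -18.4% to -5.06%. This did not pass over all genes (adjusted p = 0.281 by edgeR), nor in any of the 26 alternatives, whose adjusted p ran from 0.0904 to 0.586. The CPM of these groups did not overlap, as for 5.84% of all genes, although their TPM did through library 3 of the combination. With tirzepatide alone the log2 change was 0.049 (SE 0.053, adjusted p = 0.68 by edgeR). The interaction was -0.23 (SE 0.075, adjusted p = 0.266 by edgeR), so that a difference between the oxLDL effects with and without tirzepatide was not shown.

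Ccng1, cyclin G1, is a p53 target that recruits a phosphatase to Mdm2. It averaged 101 ± 3.62 TPM with the combination, 101 ± 2.84 TPM with oxLDL, 101 ± 2.12 TPM with tirzepatide and 97 ± 2.21 TPM in the controls (SD, n = 4 each). Its log2 changes ran from -0.0061 for the combination against oxLDL to 0.054 with oxLDL against control, with adjusted p-values from 0.546 to 0.97 by edgeR over the 4 comparisons of groups. For the 2 genes whose promoter windows hold a pair of decamers, the change with oxLDL was 12.1% for Cdkn1a and 3.81% for Ccng1. Neither change passed the threshold and their intervals overlap. A difference between the 2 genes was not tested.

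Sesn1, sestrin 1, which restrains the growth kinase complex mTORC1, had 23.3, 19.5, 23.2 and 20.6 TPM with the combination and 18.6, 16.2, 21.3 and 17.6 TPM with oxLDL. With tirzepatide it had 18.2, 20.04, 19.2 and 17.6 TPM, and in the controls 21.9, 23.2, 20.6 and 21.7 TPM. Both single treatments lay mostly below the controls, without overlap for tirzepatide, and the combination covered the range of the controls. Of all genes, 10.5% had CPM that did not overlap between tirzepatide and control. The log2 change was -0.20 (SE 0.074, adjusted p = 0.135 by edgeR) with oxLDL and -0.21 (SE 0.074, adjusted p = 0.102 by edgeR) with tirzepatide. The interaction, 0.36 (SE 0.10), had an unadjusted p of 0.00184 and did not pass over all genes (adjusted p = 0.206 by edgeR). None of these passed in any alternative, and the counts behind 1 TPM of Sesn1 varied by 10.6% between libraries. Its relative Sesn2, which responds to metabolic stress, was more abundant, at 50.1 to 65.8 TPM, and was not called in any comparison.

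No member that promotes apoptosis passed the threshold. Bax, which permeabilises the outer mitochondrial membrane, had 138 ± 9.2 TPM with the combination, 146 ± 7.71 TPM with oxLDL, 129 ± 9.93 TPM with tirzepatide and 137 ± 15.4 TPM in the controls (SD, n = 4 each). Its log2 changes lay between -0.11 with tirzepatide and 0.12 for the combination against tirzepatide, with adjusted p-values from 0.408 to 0.681 by edgeR. Its SD within groups was 0.11 on the log2 CPM scale, where genes of like TPM had a median of 0.067, so that Bax varied more between replicates than most genes of its level.

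Tnfrsf10b, the mouse receptor of the death ligand TRAIL, had 10.4, 8.31, 9.15 and 11.3 TPM with the combination and 10.1, 9.65, 12.3 and 11.1 TPM with oxLDL. With tirzepatide it had 9.11, 9.31, 9.39 and 10.6 TPM, and in the controls 11.4, 10.7, 10.7 and 10.6 TPM. In TPM the tirzepatide libraries all lay below the controls, the closest pair at 10.57 and 10.6, while in CPM the groups overlapped. The log2 change with tirzepatide was -0.21 (SE 0.094, adjusted p = 0.236 by edgeR). The gene of its ligand, Tnfsf10, had at most 2 counts in a library.

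Trp53inp1, a nuclear protein that cooperates with p53 in stress responses, had 10.6, 7.12, 7.55 and 7.35 TPM with the combination and 8.17, 8.08, 8.66 and 7.92 TPM with oxLDL. With tirzepatide it had 8.38, 6.2, 7.59 and 7.21 TPM, and in the controls 9.35, 9.17, 8.68 and 8.62 TPM. Library 1 of the combination stood above all others, and the tirzepatide libraries were all below the controls, a separation that 10.5% of all genes showed in CPM. The log2 change with tirzepatide was -0.32 (SE 0.11), a difference of -19.7% with a 95% interval from -31.4% to -6.14%, the furthest from 0 of any member in that comparison, and it did not pass (adjusted p = 0.102 by edgeR). It passed without library 1 of the combination, which is not in the comparison (-0.32, adjusted p = 0.0235 by edgeR), and without all 4 libraries numbered 1 (-0.35, adjusted p = 0.0337 by edgeR).

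Zmat3, an RNA-binding zinc finger protein that acts in p53-dependent tumour suppression, fell with tirzepatide. Its expected counts were 774, 748, 891 and 749 with tirzepatide and 855, 821, 1001 and 1022 in the controls, with overlap between the groups. The log2 change was -0.25 (SE 0.065), a change of -15.9% with a 95% interval from -23.4% to -7.69% (adjusted p = 0.03 by edgeR). It passed in 18 of 26 alternatives, with adjusted p-values from 0.00707 to 0.294. The call was lost without control 3 (-0.23, adjusted p = 0.0847), control 4 (-0.20, 0.0852), tirzepatide 1 (-0.24, 0.0828), tirzepatide 2 (-0.21, 0.114) or tirzepatide 4 (-0.25, 0.056), all by edgeR. Without controls 1 and 2 together, the libraries with the most acinar transcripts, it was -0.36 (adjusted p = 0.00867 by edgeR). With oxLDL the log2 change was -0.082 (SE 0.065, adjusted p = 0.548 by edgeR), and for the combination against oxLDL it was -0.062 (SE 0.065, adjusted p = 0.772 by edgeR).

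In TPM the difference in Zmat3 was smaller. Zmat3 had 12.9 ± 0.941 TPM with tirzepatide and 14.9 ± 1.73 TPM in the controls (SD, n = 4 each), and limma on log2(TPM + 1) gave -0.19, which did not pass (adjusted p = 0.294 by limma). The counts and TPM of this gene do not follow each other: the counts behind 1 TPM, taken relative to Mdm2 in the same library, ran from 1.93 in library 4 of the combination to 2.52 in library 3, a range of 30.6%. For the other members this ratio varied by at most 2.2%, apart from Sesn1. RSEM scales TPM by an effective length of each gene, and the transcripts behind it were not analysed here.

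**Figure D3:**
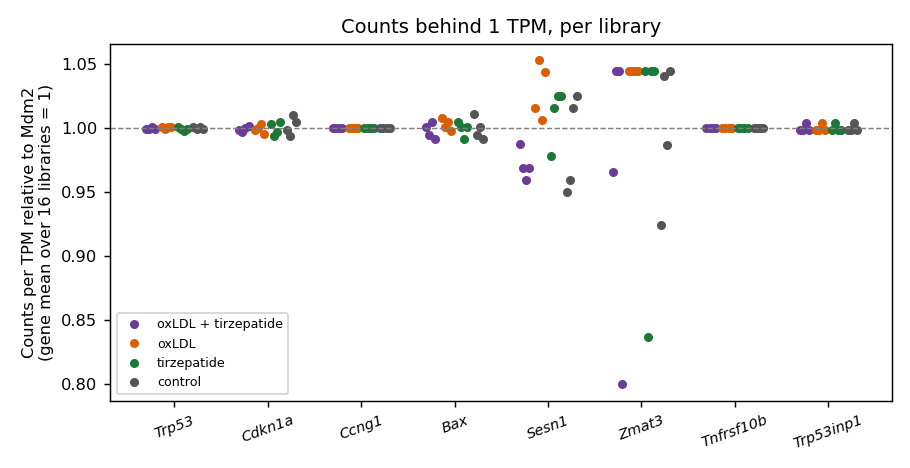
Expected counts per TPM of 8 genes, divided by the same ratio for Mdm2 in each library and scaled to a mean of 1 over 16 libraries (dots, by group). The dots of Zmat3 spread over a range of 30.6% and those of Sesn1 over 10.6%, while the others stay within 2.2%.

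Beyond the 10 members, 31 of 35 other p53 targets on a list were tested, and the ones that passed fell. The list was drawn from general knowledge, with earlier results of these data known. With oxLDL 2 of 31 fell and 0 rose, where 2.05% of all genes were called lower, and the median log2 change was -0.11 over the list, against -0.0021 over all genes. The unadjusted p was under 0.05 for 10 of 31, against 18% of all genes. Gadd45a, a stress sensor of DNA repair and growth arrest, had 70.0, 77.3, 77.3 and 71.7 TPM with oxLDL and 99.5, 101, 95.7 and 96.5 TPM in the controls. The groups lay well apart in TPM, and 11% of all genes had no overlap between these groups in CPM. The log2 change was -0.42 (SE 0.071, adjusted p = 0.000561 by edgeR). The difference was as large between libraries that share none with these: Gadd45a had 65.0, 87.4, 79.7 and 85.9 TPM with the combination and 98.1, 103, 113 and 114 TPM with tirzepatide, a log2 change of -0.41 (SE 0.07, edgeR adjusted p = 0.00234). Both calls held in all 26 alternatives.

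Ppm1d encodes the phosphatase WIP1, which switches off p53 and the damage kinases in a second feedback loop. It had 36.6, 35.9, 36.9 and 34.6 TPM with oxLDL and 42.8, 47.0, 47.8 and 43.2 TPM in the controls. No oxLDL library reached a control in TPM, and 11% of all genes had no overlap between these groups in CPM. The log2 change of -0.33 (SE 0.055, edgeR adjusted p = 0.000506) held in all 26 alternatives. With tirzepatide, at 37.9, 36.5, 41.5 and 42.1 TPM, it was the 1 of 31 that fell, with a log2 change of -0.22 (SE 0.055, edgeR adjusted p = 0.0212). That call was lost without control 2 (-0.20, adjusted p = 0.0877), control 3 (-0.21, 0.0599), tirzepatide 1 (-0.21, 0.0734) or tirzepatide 2 (-0.20, 0.0813), all by edgeR. Over the combination against oxLDL 0 of 31 passed, and over the combination against tirzepatide 1 did, Gadd45a. Of all genes, 1.74% were called lower with tirzepatide and 0.777% for the combination against tirzepatide.

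Other well-known targets gave no call. The apoptosis inducer Bbc3, known as PUMA, had a log2 change of -0.27 with oxLDL (SE 0.14, adjusted p = 0.293 by edgeR) and -0.21 with tirzepatide (SE 0.13, adjusted p = 0.426 by edgeR). Pmaip1, known as NOXA, had -0.12 in both (SE 0.08 in both, adjusted p = 0.48 with oxLDL and 0.456 with tirzepatide by edgeR). Fas and Perp, which carry death signals at the cell surface, had at most 11 and 2 counts per library and were not measured. Trp63, a p53 relative, was listed at 0 in all libraries, and Trp73 had at most 5 counts. Cdkn2a, which encodes the Mdm2 inhibitor ARF and the kinase inhibitor p16, had 1 count in 1 of 16 libraries and 0 in the others.

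**Figure D4:**
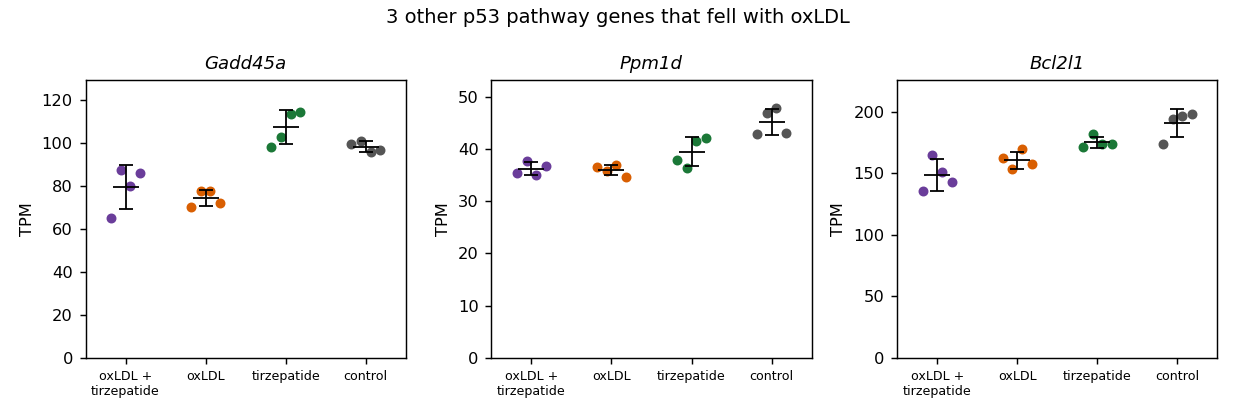
TPM of Gadd45a, Ppm1d and Bcl2l1 in each of 16 libraries (dots, libraries 1 to 4 from left to right) with the group mean and SD (bars, n = 4). For each gene the 4 oxLDL libraries lie below the 4 controls, and for Gadd45a and Bcl2l1 the 4 libraries of the combination lie below the 4 of tirzepatide.

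Among 18 tested genes that control p53, 1 rose and 0 fell with oxLDL, and 1 rose and 1 fell with tirzepatide. Of all genes, 2.49% were called higher and 2.05% lower with oxLDL, and 2.34% higher and 1.74% lower with tirzepatide. The unadjusted p was under 0.05 for 4 of 18 with oxLDL and 6 of 18 with tirzepatide, against 18% and 18.6% of all genes. The gene that rose in both was Hipk2, a kinase that phosphorylates p53 in apoptosis. It had 86.7, 85.3, 91.7 and 89.5 TPM with oxLDL, 86.3, 86.1, 90.1 and 97.5 TPM with tirzepatide, and 60.1, 70.3, 80.1 and 88.1 TPM in the controls. The controls spread widely and reached into both treated groups. The log2 change was 0.23 with oxLDL (SE 0.063, adjusted p = 0.0338) and 0.24 with tirzepatide (SE 0.063, adjusted p = 0.0277), both by edgeR, and each held in 16 of 26 alternatives. Without control 1 both calls were lost (0.16, adjusted p = 0.107 with oxLDL and 0.18, 0.0758 with tirzepatide), as they were without control 2 (0.20, 0.141 and 0.22, 0.117), all by edgeR. Leaving out any of the 4 oxLDL libraries also ended the call with oxLDL (adjusted p = 0.0772 to 0.108), as did leaving out tirzepatide 2 (0.0506), and leaving out any of the 4 tirzepatide libraries that with tirzepatide (0.0523 to 0.0901), all by edgeR. The gene that fell was Rpl11, a ribosomal protein that binds Mdm2 when ribosome assembly fails, with 1070 ± 30.8 TPM with tirzepatide and 1210 ± 86.4 TPM in the controls (SD, n = 4 each; log2 change -0.21, SE 0.048, adjusted p = 0.0147 by edgeR). Its call was lost without control 2 (-0.18, adjusted p = 0.0822 by edgeR) and without tirzepatide 1 (-0.20, adjusted p = 0.0515 by edgeR).

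Of 10 tested relatives of Bax in the BCL2 family, 2 fell and 0 rose with oxLDL, where 2.05% of all genes were called lower, with a median log2 change of -0.13. The unadjusted p was under 0.05 for 5 of 10, against 18% of all genes. The 2 genes act in opposite directions: Bcl2l1 encodes BCL-xL, which keeps Bax inactive, and Bmf a protein that neutralises such survival factors. Bcl2l1 had 162, 153, 170 and 158 TPM with oxLDL and 174, 195, 196 and 198 TPM in the controls, without overlap, at a log2 change of -0.23 (SE 0.044, edgeR adjusted p = 0.00167) that held in all 26 alternatives. For the combination against tirzepatide it was the 1 of 10 that fell, at 149 ± 12.7 TPM with the combination and 175 ± 4.57 TPM with tirzepatide (SD, n = 4 each), again without overlap (log2 change -0.23, SE 0.044, adjusted p = 0.00525 by edgeR). This call held in 25 of 26 alternatives and was lost in TPM (-0.24, adjusted p = 0.0741 by limma). Bmf had 53.5, 54.3, 63.5 and 62.8 TPM with oxLDL and 54.3, 79.2, 79.1 and 68.6 TPM in the controls. Control 1 lay within the oxLDL range, and the log2 change in counts was -0.37 (SE 0.065, adjusted p = 0.00101 by edgeR), while in TPM it was -0.25 and did not pass (adjusted p = 0.397 by limma). With tirzepatide and for the combination against oxLDL 0 of 10 passed, against 4.08% and 0.0353% of all genes. For the combination against tirzepatide 0.777% of all genes were called lower. In CPM 11% of all genes had no overlap between oxLDL and control, and 6.94% between the combination and tirzepatide.

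Of 9 tested genes downstream of Tnfrsf10b and other death receptors, 0 passed with tirzepatide against control or for the combination against either single treatment, by edgeR. At an unadjusted p under 0.05 there was 1 of 9 with tirzepatide, against 18.6% of all genes. For the combination against tirzepatide there were 2 of 9, against 13.8% of all genes. Of 8 tested relatives of the members, such as the cyclin Ccng2 and the kinase inhibitor Cdkn1b, 0 passed in any comparison. The smallest adjusted p among them with tirzepatide was that of Ccng2 (log2 change -0.19, SE 0.07, adjusted p = 0.113 by edgeR).

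p21 lowers the transcription of mitotic genes through the DREAM complex, and 18 such genes were tested as a readout downstream of Cdkn1a. With oxLDL 0 of 18 passed, against 4.54% of all genes, and the median log2 change was 0.045. The unadjusted p was under 0.05 for 5 of 18, against 18% of all genes. With tirzepatide 2 of 18 rose and 0 fell, where 2.34% of all genes were called higher, with a median of 0.099. Here 7 of 18 had an unadjusted p under 0.05, against 18.6% of all genes. Cdc20, the activator of the anaphase-promoting complex, had 38.3, 40.3, 41.7 and 36.7 TPM with tirzepatide and 27.8, 31.6, 35.9 and 30.4 TPM in the controls, a log2 change of 0.29 (SE 0.072, edgeR adjusted p = 0.0212). Aurka, a spindle kinase, had 38.2, 38.9, 40.1 and 41.6 TPM with tirzepatide and 30.6, 32.7, 32.7 and 34.2 TPM in the controls, a log2 change of 0.26 (SE 0.065, edgeR adjusted p = 0.0238). Neither gene overlapped between these groups in TPM, and 10.5% of all genes had no overlap between them in CPM. Cdc20 passed in 17 and Aurka in 19 of 26 alternatives; leaving out control 1, 2 or 4 or tirzepatide 1, 2 or 3 ended the call of Cdc20 (adjusted p = 0.0515 to 0.0781), and leaving out control 2 or 3 or tirzepatide 2, 3 or 4 that of Aurka (0.0591 to 0.0718), all by edgeR. For the combination against either single treatment 0 of 18 passed.

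The deposited table also annotates 72 genes with the KEGG p53 signalling pathway, of which 60 were tested, 8 of them members. Of the other 52, 4 fell and 0 rose with oxLDL, and 1 rose and 1 fell with tirzepatide. For the combination 0 passed against oxLDL, and 3 fell and 0 rose against tirzepatide. Of all genes, 2.49% were called higher and 2.05% lower with oxLDL, and 2.34% higher and 1.74% lower with tirzepatide. For the combination against tirzepatide these shares were 0.76% and 0.777%. The unadjusted p was under 0.05 for 13 of 52 with oxLDL, 5 with tirzepatide and 8 for the combination against tirzepatide, against 18%, 18.6% and 13.8% of all genes. Besides Gadd45a, Ppm1d and Bcl2l1 these included Cdk6, a kinase of the entry into the cell cycle, which had 18.9 ± 1.52 TPM with oxLDL and 24.4 ± 4.14 TPM in the controls (SD, n = 4 each). Its groups overlapped, and its log2 change was -0.36 in counts (SE 0.059, adjusted p = 0.000398 by edgeR) and -0.34 in TPM, where it did not pass (adjusted p = 0.203 by limma). For the combination against tirzepatide Cdk6 had -0.28 (SE 0.059, adjusted p = 0.0125 by edgeR), which was -0.096 in TPM (adjusted p = 0.814 by limma), and it was lost without tirzepatide 3 (adjusted p = 0.0502) or library 1, 3 or 4 of the combination (0.0621, 0.0516 and 0.0787), all by edgeR. Rrm2, a subunit of ribonucleotide reductase, rose with tirzepatide (81.7 ± 4.76 TPM with tirzepatide and 71.5 ± 6.03 TPM in the controls, SD, n = 4 each; log2 change 0.19, SE 0.049, adjusted p = 0.0241 by edgeR). Its call was lost without control 2 or 3 or tirzepatide 1, 2 or 3 (adjusted p = 0.0591 to 0.0938 by edgeR). For the interaction 0 genes of any of these lists passed. All these counts of 0 are by edgeR over all genes. In the combination against oxLDL, 10.1% of all genes had an unadjusted p under 0.05. Among the lists these were 3 of the 31 other targets, 0 of the 18 p53 regulators and 3 of the 10 BCL2 relatives. They were also 0 of the 9 death receptor genes, 2 of the 18 mitotic genes, 0 of the 8 relatives and 5 of the 52 other KEGG genes.

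Controls 1 and 2 had the most acinar transcripts, and whether these had a part in any call was not tested. Without both, which leaves 2 controls, Hipk2 had a log2 change of 0.10 with oxLDL (adjusted p = 0.446 by edgeR) and 0.12 with tirzepatide (adjusted p = 0.352 by edgeR). With tirzepatide the log2 change of Ppm1d was then -0.20 (-0.22 with all libraries), that of Rpl11 -0.17 (-0.21), of Cdc20 0.25 (0.29), of Aurka 0.25 (0.26) and of Rrm2 0.20 (0.19). These 5 adjusted p-values ran from 0.10 to 0.152 by edgeR, so each lost its call, while leaving out single other libraries ended the same calls, as given for each gene. With oxLDL Gadd45a, Ppm1d, Bcl2l1, Bmf and Cdk6 stayed past the threshold without these libraries, as Zmat3 did with tirzepatide.

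The genes whose patterns over the 16 libraries lay closest to those of the members were found by the root mean square difference of log2 CPM, with each gene centred on its own mean, among 11318 other tested genes. Closest to Trp53 were Zfp827 at 0.046, Ampd2 at 0.046 and Mybbp1a at 0.05, where the median gene was at 0.16. Closest to Cdkn1a were Btg1 at 0.048, Atp6v0c at 0.053 and Mtmr3 at 0.059, with the median gene at 0.155. Ccng1 had Capza1 at 0.016, Ghitm at 0.029 and Dhx15 at 0.031, with the median gene at 0.13. The SD of Ccng1 itself was only 0.048, against 0.104 for Trp53 and 0.098 for Cdkn1a, so its neighbours are also genes that vary little. For Mdm2 the nearest were Slc25a37 at 0.03, Ccnt1 at 0.031 and Plaa at 0.035, but the SD of Mdm2 itself was 0.031, so these are genes that hardly vary rather than genes that share a pattern.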

How the data were processed

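RNA sequencing measured mRNA in 16 RAW264.7 libraries, 4 in each of 4 groups that the sample titles name. The authors deposited expected counts per gene and library, estimated with RSEM and not scaled between libraries, and TPM. Tools in the submitters' processing notes are RSEM without a version, StringTie 1.3.1, Bowtie2 2.2.8 and fastp 0.18.0, with GRCm39 and mm39 as builds; the annotation release and whether counting used strand are not given in the sources used here. Genes with near-identical copies or antisense partners may share reads.

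For testing, the expected counts were made whole by rounding, filtered by filterByExpr (minimum count 10) and scaled by TMM. The quasi-likelihood test of edgeR 4.0.16 in R 4.3.3 used every library in a single model with 1 coefficient for each group. The estimated biological coefficient of variation was 0.0633. Standard errors were taken from the log2 change and its F statistic, and intervals cover 95%. Rows of the table with no symbol, 90 in all, stayed in the fit as genes. The fit was also run on counts simulated with the spread estimated from these data. No library was made to stand apart in them, so that run cannot show how calls hold where libraries do.

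Members are the 10 genes fixed by name; a gene under 10 counts in most libraries was taken as not measured. All members are named, and up to 4 called genes of each list. Not every uncalled gene under that rule is printed, and the results of some genes are not reported here. The members and lists were chosen with earlier results of these data known.

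Replicates differed beyond counting error, with a chi-square per degree of freedom of 2.71 to 17.7, so none was counted as a duplicate. Alternatives were DESeq2 size factors, DESeq2 1.42.0, no filter on low counts, a mean of at least 5 TPM in a group, only the groups compared, the replicate number as a block, the mitochondrial share as a covariate, and leaving out each library or controls 1 and 2. Chosen after seeing the data were the deposited TPM in limma 3.58.1 on log2(TPM + 1) and leaving out the libraries numbered 1. On that scale a change of a low gene is understated.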

Additional observations from a re-analysis of the deposited data

Results flagged for a closer look

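Among the 36 sets of 4 libraries looked at, which are 9 measured genes in 4 groups, 2 had a library whose gap to the nearest other library took up more of the range than Dixon's 95% critical value for 4 samples. Chance gives about 1 such set in 20. Trp53inp1 had 10.65 TPM in library 1 of the combination, while the other 3 libraries of that group had 7.115 to 7.551 TPM, and the gap was 0.877 of the range. Tnfrsf10b had 11.35 TPM in control 1, while the other controls had 10.605 to 10.681 TPM, and the gap was 0.898 of the range. Both are libraries numbered 1, whose mitochondrial share of counts, 10.5% in library 1 of the combination and 11.2% in control 1, was the highest of their groups. Its part in these values was not tested.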

How the results depend on the processing

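Which members passed depended on the setting. With oxLDL against control 1 member, Cdkn1a, passed in a fit of only these groups, and with tirzepatide against control 0 passed in a fit of only these groups and 0 in TPM with limma. Over the fits that left out 1 library, 0 to 1 members passed with oxLDL, 0 to 2 with tirzepatide, 0 to 0 for the combination against oxLDL, 0 to 1 against tirzepatide and 0 to 0 for the interaction. The main fit did not pair the libraries by number, and whether the numbers pair them was not tested. Of 24 correlations of same-numbered libraries, 10 exceeded 0.1 (-0.163 to 0.428). Those between libraries numbered 1 ran from 0.099 to 0.428, and those of the other numbers from -0.163 to 0.206. With the replicate block 1 member passed with oxLDL (Cdkn1a, adjusted p = 0.0418 by edgeR) and 2 with tirzepatide (Trp53inp1, adjusted p = 0.0296 by edgeR, and Zmat3), and over all genes the block gave 750 calls with tirzepatide, 17 for the combination against oxLDL, 378 against tirzepatide and 29 for the interaction.

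Over all genes, leaving out 1 library gave 307 to 594 calls with oxLDL (lowest without control 2), 119 to 542 with tirzepatide (lowest without control 2), 2 to 8 for the combination against oxLDL, 58 to 444 against tirzepatide (lowest without library 4 of the combination, highest without library 2) and 1 to 16 for the interaction. With oxLDL there were 307 calls without controls 1 and 2, 813 with the mitochondrial covariate and 251 in TPM. With tirzepatide there were 264 in a fit of only these groups, 204 without controls 1 and 2, 857 with the covariate, 233 in TPM and 291 without the libraries numbered 1. For the combination against oxLDL there were 32 with no filter, 18 by DESeq2, 7 in only these groups, 8 without controls 1 and 2, 2 in TPM and 13 without the libraries numbered 1. Against tirzepatide there were 282 with no filter, 312 by DESeq2, 107 in only these groups, 50 in TPM and 86 without the libraries numbered 1. For the interaction there were 39 with no filter, 48 by DESeq2, 5 without controls 1 and 2, 14 with the covariate, 3 in TPM and 4 without the libraries numbered 1. The cause was not tested.

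No called change turned its sign. Signs turned for 43 of the values of uncalled members near 0. Without controls 1 and 2 the log2 change with oxLDL was 0.00394 for Mdm2 and 0.0414 for Tnfrsf10b, and with tirzepatide 0.0169 for Mdm2 and -0.00355 for Trp53. With the mitochondrial covariate it was 0.00227 for Mdm2 with tirzepatide, 0.00347 for Trp53 in the combination against oxLDL, and -0.00881 for Mdm2 and -0.00651 for Ccng1 against tirzepatide. In TPM it was 0.0123 for Mdm2 with tirzepatide, 0.0605 for Zmat3 in the combination against oxLDL, -0.0145 for Mdm2 and -0.00131 for Ccng1 against tirzepatide, and -0.00104 for Bax in the interaction. Without the libraries numbered 1 it was 0.0456 for Tnfrsf10b with oxLDL, 0.0101 for Mdm2 with tirzepatide, 0.0341 for Trp53 in the combination against oxLDL, -0.00446 for Mdm2, -0.0087 for Ccng1 and -0.0183 for Tnfrsf10b against tirzepatide, and -0.0177 for Bax and -0.0639 for Tnfrsf10b in the interaction. Leaving out 1 library, ranges that crossed 0 were -0.0707 to 0.0263 for Tnfrsf10b with oxLDL; -0.0371 to 0.00244 for Mdm2 with tirzepatide; -0.0645 to 0.0223 for Trp53, -0.0433 to 0.016 for Ccng1 and -0.178 to 0.0482 for Trp53inp1 in the combination against oxLDL. Against tirzepatide they were -0.00522 to 0.0181 for Mdm2, -0.0176 to 0.0418 for Ccng1 and -0.0203 to 0.116 for Tnfrsf10b, and in the interaction -0.048 to 0.0774 for Bax and -0.00155 to 0.135 for Tnfrsf10b. Phlda3, at up to 7 counts, could not be tested at this depth. Trp53inp1 and Tnfrsf10b had the widest intervals of the tested members.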
